A study of Homo sapiens with 7 samples.

Results

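Genes of the nuclear pore and of nuclear transport receptors were taken from the count table by a fixed list of symbols. All 38 were found among its 59251 rows, and all 38 were among the 26062 genes with enough counts to be tested. Of these, 31 encode nucleoporins and their partners at the pore, 5 encode importin alphas, and KPNB1 and XPO1 encode importin beta and the main protein export receptor. The list was set by gene function, with earlier results of these data known.

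The cells were H9, an established human embryonic stem cell line, held in RSeT, a medium for the naive state. The DJL1 group had 3 libraries and the CTRL group 4, both from cells transfected with guide RNA plasmids. The series title concerns LINE1 elements beside the rDNA arrays, in their distal junctions, and the comparison asks how the RNA of DJL1 cells differs from that of CTRL cells. Both groups shared TSA, which inhibits histone deacetylases, at 5 nM, DZNep, which lowers histone methylation, at 10 nM, and the CEPT survival cocktail for the initial 16 h, and RNA was taken 48 h after transfection. The protein that the guides direct, the content of the CTRL plasmids, the share of cells transfected and whether cells were sorted remain unstated in these sources.

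The nuclear pore complex is a ring-shaped channel through the nuclear envelope, through which all regulated traffic between nucleus and cytoplasm passes. A scaffold of outer Y complexes and inner rings holds flexible nucleoporins rich in phenylalanine and glycine (FG), which fill the channel and bind transport receptors. Importin alphas recognise nuclear localisation signals and enter with importin beta, XPO1 carries proteins with leucine-rich export signals out, and the GTPase RAN sets the direction of both. In mouse embryonic stem cells KPNA2 is the main importin alpha, and KPNA1 is known to rise when such cells form neurons.

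Total counts were 34634882 to 37795742 in the DJL1 libraries and 62277489 to 76691997 in the CTRL libraries, so depth did not overlap between the groups. The members were well covered, with no fewer than 645 counts for any member in any library (NUP35 in DJL1 replicate 2). Levels are given in CPM, counts scaled to 1000000 per library with TMM factors. The 10 pluripotency markers checked were all expressed, with POU5F1 at a mean of 5354 CPM in DJL1 and 5324 CPM in CTRL, and 8 of the 10 were called lower and 1 higher. POU5F1 was not called. The 8 lower ones ran from -0.93 (PRDM14) to -0.23 (LIN28A) on the log2 scale. The higher one was KLF17, at 9.36 CPM in DJL1 and 2.48 CPM in CTRL (log2 fold change 1.92). Markers of other cell types moved with the group. Their summed level ran from 781 to 897 CPM in DJL1 and from 496 to 510 CPM in CTRL for 10 fibroblast or feeder genes (7 called higher), from 37.3 to 48.1 CPM in DJL1 and from 11.5 to 14.8 CPM in CTRL for 7 trophectoderm genes (6 called higher), from 16.0 to 20.6 CPM in DJL1 and from 5.09 to 6.92 CPM in CTRL for 5 endoderm genes (4 called higher), and from 25.6 to 32.3 CPM in DJL1 and from 15.6 to 18.2 CPM in CTRL for 4 neural genes (4 called higher). The largest part of the fibroblast sum was COL1A1, with means of 484 CPM in DJL1 and 241 CPM in CTRL. Of that list POSTN was not called. LUM (0.12 CPM in DJL1, 0.02 in CTRL) and DCN (0.06 in DJL1, 0.01 in CTRL) had too few counts to be tested. The part of these cell type markers in the results was not tested. In such bulk RNA, fewer cells of a type and less RNA per cell cannot be told apart.

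Most nuclear pore genes were modestly lower in DJL1 cells, and a few, KPNA1, AHCTF1 and the RANBP2 row foremost, were higher. Reads of RANBP2 cannot be told apart from those of its near-identical relatives. At an adjusted p under 0.05 (edgeR quasi-likelihood fit, Benjamini-Hochberg over all tested genes), 24 of the 38 members were lower, 6 were higher and 8 were not called. Over all genes tested, 25.1% were lower and 27.0% higher, together 52.0% with the rest not called. Members had mean levels from 22.8 to 647 CPM, and within that range, which holds 7934 tested genes, 47.7% were lower and 24.5% higher, together 72.2%. The members' shares were 63.2% lower and 15.8% higher. Their median log2 fold change (DJL1 over CTRL) was -0.24, against -0.11 over the tested genes of that range and 0.01 over all tested genes. The values of the groups did not overlap for 33 of the 38 members (86.8%), a state that held for 53.6% of all tested genes and for 72.7% of those in the same CPM range. Changes were small. KPNA1 was the 1 member called higher by at least 0.5 on the log2 scale, as were 18.4% of all tested genes and 7.22% of those in the CPM range, and NDC1 the 1 called lower by as much, as were 8.43% of all and 7.93% in the range.

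**Figure D1:**
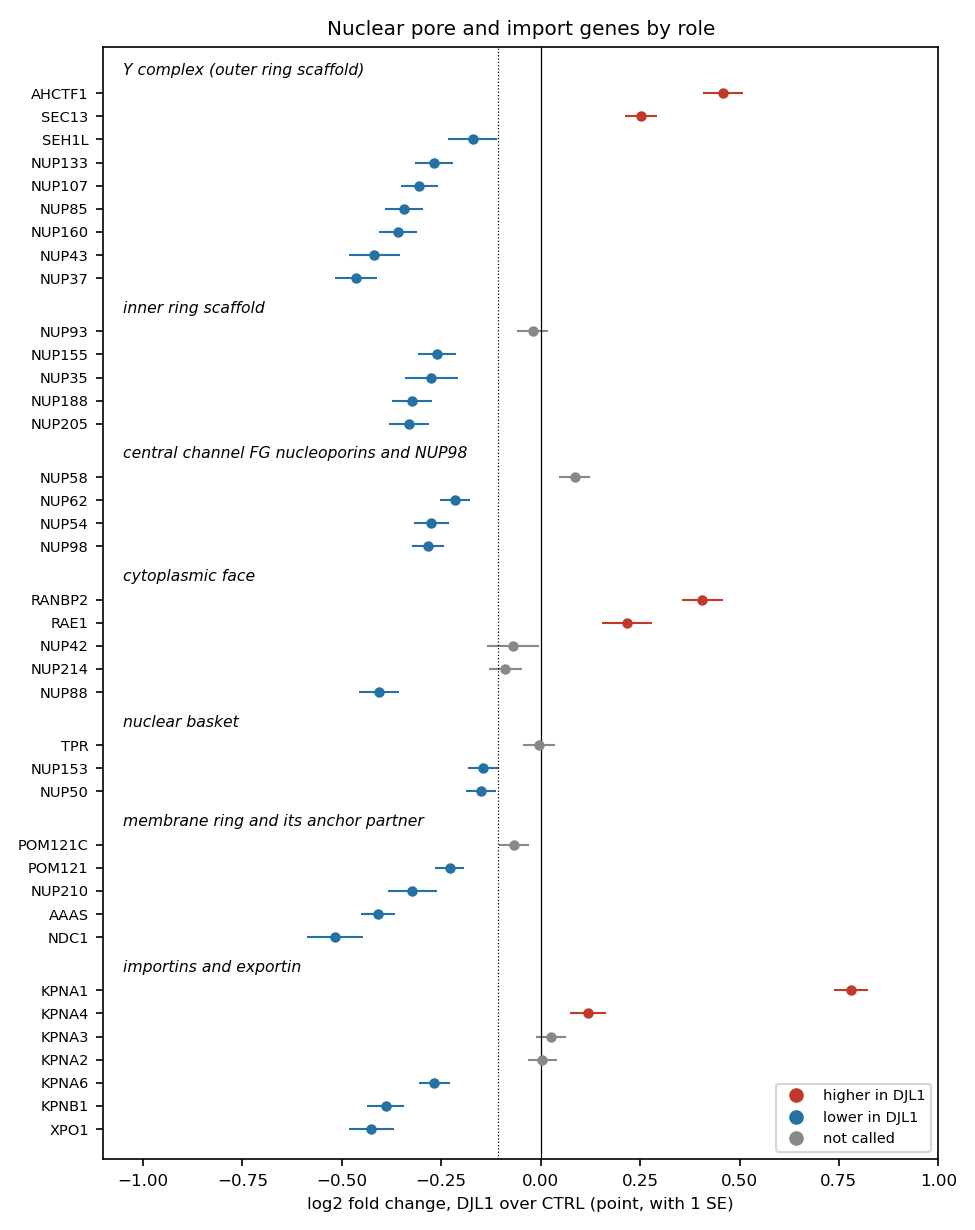
Log2 fold change of each of the 38 members, DJL1 over CTRL, as points with 1 SE, grouped by role and coloured by the call at an adjusted p of 0.05. The dotted line marks the median of tested genes in the same CPM range (-0.11), and KPNA1 lies farthest to the right at 0.78 while NDC1 lies farthest to the left at -0.52.

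**Figure D2:**
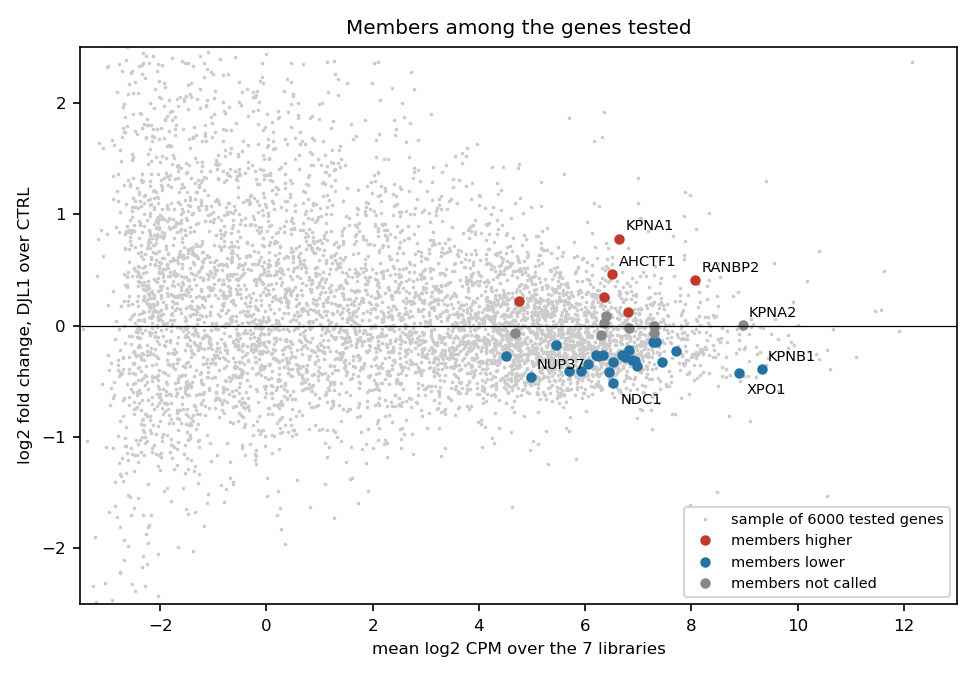
Log2 fold change (vertical) against mean log2 CPM over the 7 libraries (horizontal) for the 38 members and a random sample of 6000 tested genes in grey, with the vertical axis cropped. The members lie in the upper part of the expression range, mostly below 0.

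Promoters are shown for KPNA1 and RANBP2, whose rows were higher, for NDC1 and XPO1, whose rows were lower, and for NUP107 as an example of a scaffold gene with several motif matches. The sequences are RefSeq's, GRCh38.p14, from 250 bases before to 50 after an annotated transcript start, and 34 of the 38 members had an entry. For the 8 members with several entries the one listed first was used. The start used was the outer end of the RefSeq gene span for 29 members and lay inside that span for 5, by 256 bases for XPO1, 8 for NUP98, 194 for NUP160, 287 for RAE1 and 6929 for NUP35, so that the XPO1 window lies wholly within the span of its gene. Gene positions given further on are of the same build. They cover chr3:122514890-122515189 (minus strand) for KPNA1, chr2:108719232-108719531 (plus strand) for RANBP2, chr1:53838247-53838546 (minus strand) for NDC1, chr2:61538307-61538606 (minus strand) for XPO1 and chr12:68686728-68687027 (plus strand) for NUP107. Capitals mark a match, on either strand, to the ETS factor core CCGGAAG, the NRF1 motif (GCGC, any base, TGCGC), the CCAAT box, the cyclic AMP element TGACGTCA, the interferon-stimulated element (GAAA, any 2 bases, GAAA) or the SP1 box GGGCGG, each searched alone so that matches may overlap.
KPNA1: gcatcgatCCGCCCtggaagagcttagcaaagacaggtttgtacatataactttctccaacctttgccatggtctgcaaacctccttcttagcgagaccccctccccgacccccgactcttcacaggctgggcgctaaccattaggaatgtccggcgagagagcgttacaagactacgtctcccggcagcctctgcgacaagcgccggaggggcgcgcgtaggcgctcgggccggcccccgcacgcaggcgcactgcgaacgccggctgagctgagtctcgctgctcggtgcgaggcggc
RANBP2: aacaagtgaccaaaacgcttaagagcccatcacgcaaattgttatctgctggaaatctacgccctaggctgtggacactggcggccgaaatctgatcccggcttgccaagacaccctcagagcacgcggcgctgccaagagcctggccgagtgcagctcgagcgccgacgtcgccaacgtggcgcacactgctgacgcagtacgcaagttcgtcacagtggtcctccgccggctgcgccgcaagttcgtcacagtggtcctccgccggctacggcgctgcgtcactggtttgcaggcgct
NDC1: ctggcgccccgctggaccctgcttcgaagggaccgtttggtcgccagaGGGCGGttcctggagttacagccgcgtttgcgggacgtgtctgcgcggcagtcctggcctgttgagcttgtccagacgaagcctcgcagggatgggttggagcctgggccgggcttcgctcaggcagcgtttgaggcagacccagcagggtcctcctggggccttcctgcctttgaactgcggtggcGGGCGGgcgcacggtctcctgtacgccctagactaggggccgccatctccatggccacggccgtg
XPO1: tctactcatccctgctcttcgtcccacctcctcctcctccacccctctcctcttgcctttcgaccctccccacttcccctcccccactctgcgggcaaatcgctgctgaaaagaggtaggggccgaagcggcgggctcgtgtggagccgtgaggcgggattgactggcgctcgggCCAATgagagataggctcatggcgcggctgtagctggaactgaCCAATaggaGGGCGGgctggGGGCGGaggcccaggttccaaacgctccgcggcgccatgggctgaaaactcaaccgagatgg
NUP107: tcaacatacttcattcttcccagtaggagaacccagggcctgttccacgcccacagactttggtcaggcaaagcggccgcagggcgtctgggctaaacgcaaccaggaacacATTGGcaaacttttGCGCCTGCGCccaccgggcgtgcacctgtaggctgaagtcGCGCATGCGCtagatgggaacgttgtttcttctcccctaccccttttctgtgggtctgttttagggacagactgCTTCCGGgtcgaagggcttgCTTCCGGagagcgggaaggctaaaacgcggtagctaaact

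The ETS core was present in 13 of the 34 member promoters (38.2%), in 22.2% of the 6236 promoters of tested genes in the same CPM range and in 10.7% of all 27305 promoters. Of the members with an entry, 9 of 22 that were lower, 1 of 4 that were higher and 3 of 8 that were not called held it. The SP1 box was in 47.1% of member promoters, against 73.4% in the same CPM range and 44.6% of all. A CCAAT box was in 41.2%, against 38.2% in the CPM range and 35.7% of all, and NRF1 motifs were in 11.8%, against 13.4% and 6.28% in the range and over all. The cyclic AMP element was found in 3 member promoters (8.82%), those of NUP133, NUP214 and NUP42, and in 3.80% of the CPM range and 1.98% of all. The letters of the interferon-stimulated element were in no member promoter, and in 2.61% of the CPM range and 3.65% of all. These matches describe the letters in these windows only.

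Of the 9 members grouped here as the Y complex, the outer ring scaffold that also seeds new pores, 7 were lower and 2 higher. NUP98 was placed in the channel group and is not among these 9. NUP37, a peripheral beta-propeller subunit (chromosome 12, 102073103 to 102120114), stood at 27.8, 24.9 and 25.7 CPM in the 3 DJL1 libraries and at 35.2, 36.4, 36.2 and 36.4 CPM in the 4 CTRL libraries. Every DJL1 library lay below every CTRL library, and NUP37 fell by 0.46 on the log2 scale (SE 0.05, adjusted p = 3.2e-06). The other lower subunits were NUP43 (log2 fold change -0.42), NUP160 (-0.36), NUP85 (-0.34), NUP107 (-0.30), NUP133 (-0.27) and SEH1L (-0.17), the last shared with the GATOR2 complex of nutrient signalling. The SEH1L call was lost under 9 of 18 alternatives, with an adjusted p of 0.081 without DJL1 replicate 2 and of 0.050 to 0.065 without any 1 CTRL library.

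AHCTF1, also called ELYS, binds chromatin and recruits the Y complex to start pore assembly after mitosis (chromosome 1, 246839098 to 246931948). Its level was 118, 110 and 101 CPM in the DJL1 libraries, against 82.6, 77.0, 80.0 and 79.5 CPM in the CTRL libraries. The groups did not overlap, and AHCTF1 rose by 0.46 (SE 0.05, adjusted p = 1.9e-06), about the size of the NUP37 difference with the opposite sign. SEC13, which also serves in the COPII coat of secretory vesicles, rose as well, with 89.9 ± 0.57 CPM in DJL1 and 75.5 ± 2.16 CPM in CTRL (SD, n = 3 and 4) and a log2 fold change of 0.25. Per kilobase of exon, AHCTF1 reached 0.71 ± 0.08 of the median of the other 8 members grouped as the Y complex within a DJL1 library and 0.41 ± 0.02 within a CTRL library. This ratio was chosen after the values were seen and was not tested.

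Among the 5 inner ring genes, 4 were lower and NUP93 was not called (log2 fold change -0.02). NUP205, a large scaffold protein that pairs with NUP93 (chromosome 7, 135557917 to 135648753), had 151, 141 and 168 CPM in DJL1 and 192, 194, 193 and 193 CPM in CTRL. The CTRL libraries were nearly equal while those of DJL1 spread widely, and the log2 fold change was -0.33 ± 0.05 (SE, adjusted p = 4.7e-05). Its relative NUP188 had -0.32, NUP35 -0.27 and NUP155 -0.26. The span of NUP188 overlaps SH3GLB2, whose row held 42.5% as many counts and had a log2 fold change of -0.65. How the counting treated strand is unstated, so for overlapping genes some reads may be shared.

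Of the channel group, 3 of 4 were lower. NUP98, a mobile nucleoporin with GLFG repeats that binds RAE1 (chromosome 11, 3675010 to 3797554), had 98.8, 91.5 and 98.2 CPM in DJL1 and 117, 117, 117 and 118 CPM in CTRL. All DJL1 values lay below those of CTRL, with -0.28 ± 0.04 on the log2 scale (SE, adjusted p = 2.6e-05). NUP54, NUP58 and NUP62 form the FG trimer of the central channel, and NUP54 (-0.28) and NUP62 (-0.22) fell while NUP58 was not called, at 86.4 ± 2.14 CPM in DJL1 and 81.5 ± 1.61 CPM in CTRL (log2 fold change 0.09, adjusted p = 0.088). Its groups did not overlap, and it passed without DJL1 replicate 2 (0.09, adjusted p = 0.046) and with upper quartile factors (0.10, adjusted p = 0.036). NUP62 overlaps the stress factor gene ATF5, whose row had 70.8% as many counts and a log2 fold change of -0.14.

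The cytoplasmic face was mixed, with 2 of 5 higher, 1 lower and 2 not called. NUP88, the partner of NUP214 at the filament base (chromosome 17, 5384833 to 5419662), had 44.3, 41.6 and 47.2 CPM in DJL1 and 58.5, 60.3, 59.1 and 57.4 CPM in CTRL. The groups were well apart, at a log2 difference of -0.41 ± 0.05 (SE, adjusted p = 5.2e-06). Its span overlaps RABEP1, whose row held 125% as many counts and had a log2 fold change of 0.13. NUP214 was at 76.3 ± 2.03 CPM in DJL1 and 81.2 ± 2.12 CPM in CTRL (log2 fold change -0.09, adjusted p = 0.086), and passed without DJL1 replicate 1 (adjusted p = 0.033) or 2 (adjusted p = 0.047). NUP42, an FG protein that binds the export factor GLE1, was at -0.07 on the log2 scale (adjusted p = 0.40) and passed without DJL1 replicate 1 (-0.16, adjusted p = 0.028). RAE1, an mRNA export factor, rose by 0.22 (adjusted p = 0.0095), a call that was lost without DJL1 replicate 3 (0.15, adjusted p = 0.060).

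RANBP2, also called NUP358, builds the cytoplasmic filaments and acts as a SUMO ligase. Its level was 349, 301 and 298 CPM in DJL1 and 238, 234, 247 and 234 CPM in CTRL. No values overlapped, and the log2 fold change was 0.41 ± 0.05 (SE, adjusted p = 7.4e-06). RANBP2 has near-identical relatives, the RGPD genes, so its count is uncertain, and its RefSeq span (chromosome 2, 108719482 to 109842301) also covers RGPD5. Other genes overlap that span too, among them SEPTIN10 (17.9% as many counts, log2 fold change -0.20), SOWAHC (13.2%, 0.26) and CCDC138 (5.36%, -0.73). The 7 RGPD rows together held 201% of the RANBP2 counts in DJL1 and 170% in CTRL. Each of these rows was higher in DJL1, by 0.55 (RGPD4) to 0.69 (RGPD6) on the log2 scale. With the 8 rows summed before the fit, a step added once the data had been seen, the family stood at 950 ± 57.9 CPM in DJL1 and 645 ± 14.4 CPM in CTRL (SD, n = 3 and 4), 0.56 ± 0.04 higher on the log2 scale (SE, adjusted p = 3.6e-08). Which of these genes gave the reads cannot be told apart in these counts.

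**Figure D3:**
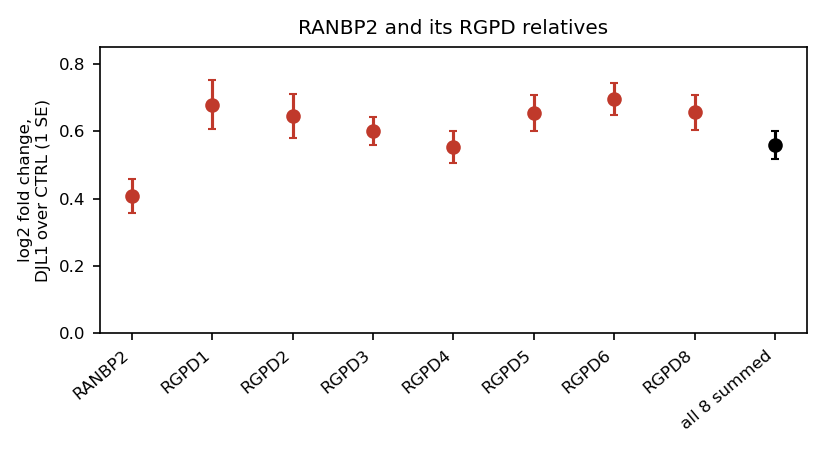
Log2 fold change of RANBP2, the 7 RGPD rows and their sum, DJL1 over CTRL, with 1 SE. All lie above 0, from 0.41 for RANBP2 to 0.69 for RGPD6.

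The nuclear basket faces the nucleoplasm, and 2 of its 3 genes were lower by small amounts. NUP50, which helps release cargo from importin alpha (chromosome 22, 45163925 to 45188017), had 147, 141 and 152 CPM in DJL1 and 164, 163, 162 and 163 CPM in CTRL. The DJL1 values were all lower, at -0.15 ± 0.04 on the log2 scale (SE, adjusted p = 0.0037). NUP153, which anchors the basket, had -0.14 (adjusted p = 0.0065). TPR, the long coiled-coil protein of the basket struts, was not called, with 157 ± 6.68 CPM in DJL1 and 157 ± 2.60 CPM in CTRL (SD, n = 3 and 4).

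In the membrane group, 4 of 5 were lower. NDC1, the transmembrane protein that anchors the pore in the envelope (chromosome 1, 53765478 to 53838296), had 79.8, 62.4 and 82.4 CPM in DJL1 and 106, 109, 106 and 108 CPM in CTRL. It had the lowest fold change of the 38, a log2 value of -0.52 ± 0.07 (SE, adjusted p = 1.6e-05), although DJL1 replicate 2 lay well below the other DJL1 libraries. AAAS, which encodes the NDC1 partner ALADIN (chromosome 12, 53307460 to 53321610), had 51.3, 49.5 and 53.1 CPM in DJL1 and 68.5, 67.2, 68.3 and 68.2 CPM in CTRL. Here the DJL1 libraries were close together, and the log2 fold change was -0.41 ± 0.04 (SE, adjusted p = 1.1e-06). NUP210, a glycoprotein of the lumenal ring, had -0.32 (adjusted p = 0.00041).

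POM121 and POM121C, near-identical transmembrane FG proteins encoded apart on chromosome 7 (72879357 to 72951459 and 75416786 to 75486299), may share reads with each other and with the row POM121B. POM121 had 185, 193 and 194 CPM in DJL1 and 222, 225, 223 and 224 CPM in CTRL, or -0.23 ± 0.04 on the log2 scale (SE, adjusted p = 7.8e-05). POM121C had 149, 154 and 158 CPM in DJL1 and 160, 160, 162 and 162 CPM in CTRL. Its groups did not overlap, yet it was not called (log2 fold change -0.07, approximate 95% interval -0.14 to 0.01, adjusted p = 0.14), and it passed without DJL1 replicate 2 (adjusted p = 0.049) or 3 (adjusted p = 0.030). POM121C overlaps NSUN5P1, whose row held 58.4% as many counts and had a log2 fold change of -0.61. POM121 overlaps NSUN5P2, whose row held 13.9% as many counts and had a log2 fold change of -0.85. With the rows of POM121, POM121B and POM121C summed, also added afterwards, the log2 fold change was -0.15 ± 0.04 (SE, adjusted p = 0.0023).

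Log2 fold changes of the 7 transport receptors ran from -0.43 to 0.78. KPNB1, importin beta (chromosome 17, 47649919 to 47685505), had 567, 503 and 580 CPM in DJL1 and 730, 722, 713 and 715 CPM in CTRL. All DJL1 libraries were lower, by a log2 difference of -0.39 ± 0.05 (SE, adjusted p = 4.0e-06). XPO1 (chromosome 2, 61477849 to 61538612) had 441, 352 and 411 CPM in DJL1 and 547, 539, 538 and 535 CPM in CTRL. It fell by 0.43 (SE 0.06, adjusted p = 1.5e-05), again with DJL1 replicate 2 the lowest.

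Among the importin alphas KPNA1 rose most of all 38 members (chromosome 3, 122421902 to 122514939). KPNA1 encodes importin alpha 5, an adaptor that links cargo with classical localisation signals to importin beta. Its level was 133, 143 and 132 CPM in DJL1 and 77.5, 76.9, 82.6 and 79.9 CPM in CTRL. The lowest DJL1 value stood far above the highest CTRL value, and the fitted difference between the groups was 1.72-fold (log2 fold change 0.78 ± 0.04, SE, adjusted p = 1.6e-09). KPNA6, of the same subfamily as KPNA1, moved the other way with no overlap of the groups, at -0.27 ± 0.04 on the log2 scale (SE, adjusted p = 2.8e-05). KPNA5, counted further on with the related genes, was also lower without overlap, at -0.40 ± 0.10 (SE, adjusted p = 0.0026).

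KPNA2 (chromosome 17, 68035735 to 68046854) was not called, with 508, 483 and 509 CPM in DJL1 and 501, 496, 495 and 501 CPM in CTRL. The values overlapped, and the log2 fold change of 0.00 had an approximate 95% interval of -0.07 to 0.07. KPNA3 was not called either (0.03, adjusted p = 0.59). KPNA4, its closest relative, rose by 0.12 (adjusted p = 0.036), a call lost under 10 of 18 alternatives, with an adjusted p of 0.24 without DJL1 replicate 1 and of 0.064 to 0.084 without any 1 CTRL library. As shares of the 5 importin alphas among the members, KPNA5 and KPNA7 left out, per kilobase of exon, KPNA1 made up 8.16% ± 0.53 in DJL1 and 4.90% ± 0.16 in CTRL, KPNA6 5.19% ± 0.18 in DJL1 and 6.44% ± 0.05 in CTRL, and KPNA2 73.7% ± 0.70 in DJL1 and 75.8% ± 0.25 in CTRL (SD, n = 3 and 4). Within a library KPNA1 exceeded KPNA6 1.57 ± 0.07 times in DJL1, whereas it stood at 0.76 ± 0.02 of KPNA6 in CTRL. These shares and ratios were chosen after the values were seen and were not tested.

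**Figure D4:**
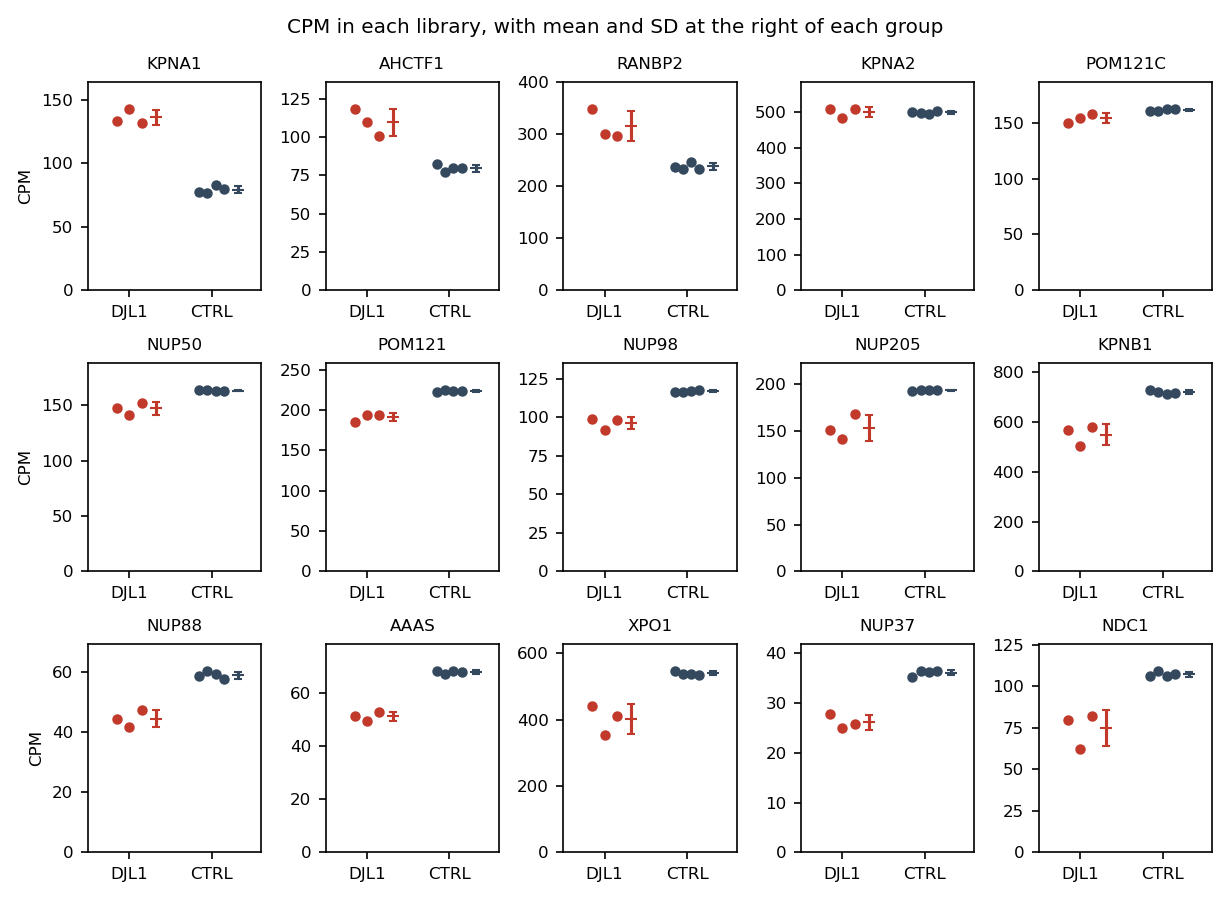
CPM in each library for the 15 members described library by library, with DJL1 (3 points) left of CTRL (4 points) and the mean and SD beside each group. The DJL1 points of KPNA1, AHCTF1 and RANBP2 all lie above CTRL, those of KPNA2 overlap it, and those of the other 11 lie below it.

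Levels of different genes were compared in CPM per kilobase of exon, with lengths from GENCODE release 29. The order at the top was the same in both groups, KPNA2 with 180 ± 5.29 in DJL1 and 179 ± 1.13 in CTRL, KPNB1 with 82.3 ± 6.17 in DJL1 and 108 ± 1.13 in CTRL, XPO1 with 75.6 ± 8.53 in DJL1 and 101 ± 0.98 in CTRL, and SEC13 with 42.0 ± 0.26 in DJL1 and 35.2 ± 1.01 in CTRL (SD, n = 3 and 4). In DJL1, the means of KPNB1 and XPO1 differed by less than the larger of their SDs. Such SDs between libraries take no account of genes being measured in the same libraries. The remaining 34 members were close in level, from 8.06 (NUP155) to 28.5 (NUP54) in DJL1 and from 7.59 (RAE1) to 34.5 (NUP54) in CTRL, and of the 33 pairs of neighbours in that order 27 in DJL1 and 10 in CTRL differed by less than the larger of their SDs. The 3 members whose rows rose most changed place, KPNA1 standing at rank 13 of 38 in DJL1 and 33 in CTRL, RANBP2 at 6 in DJL1 and 17 in CTRL, and AHCTF1 at 30 in DJL1 and 37 in CTRL. The RANBP2 place carries the uncertainty of its count. Members that fell moved too, such as NDC1, at 23 in DJL1 and 16 in CTRL, and NUP37, at 33 in DJL1 and 26 in CTRL. Medians by role were 15.9 in DJL1 and 19.6 in CTRL for the Y complex, 12.0 in DJL1 and 13.3 in CTRL for the inner ring, 16.1 in DJL1 and 19.0 in CTRL for the channel group, and 11.2 in DJL1 and 11.7 in CTRL for the cytoplasmic face. They were 25.3 in DJL1 and 27.9 in CTRL for the basket, 19.4 in DJL1 and 22.8 in CTRL for the membrane group, and 19.9 in DJL1 and 18.3 in CTRL for the transport receptors, the 1 role with a higher median in DJL1. That median was the KPNA1 value in DJL1 and the KPNA3 value in CTRL. The summed level of the 7 receptors was lower in DJL1, at 1882 ± 99.9 CPM against 2140 ± 11.1 CPM in CTRL (SD). Across the 38 members the log2 fold change had a Spearman rho of 0.34 with exon length and of -0.41 with the CTRL level per kilobase, given as a description since genes share libraries and scaling and the fold change is itself computed from the CTRL level.

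**Figure D5:**
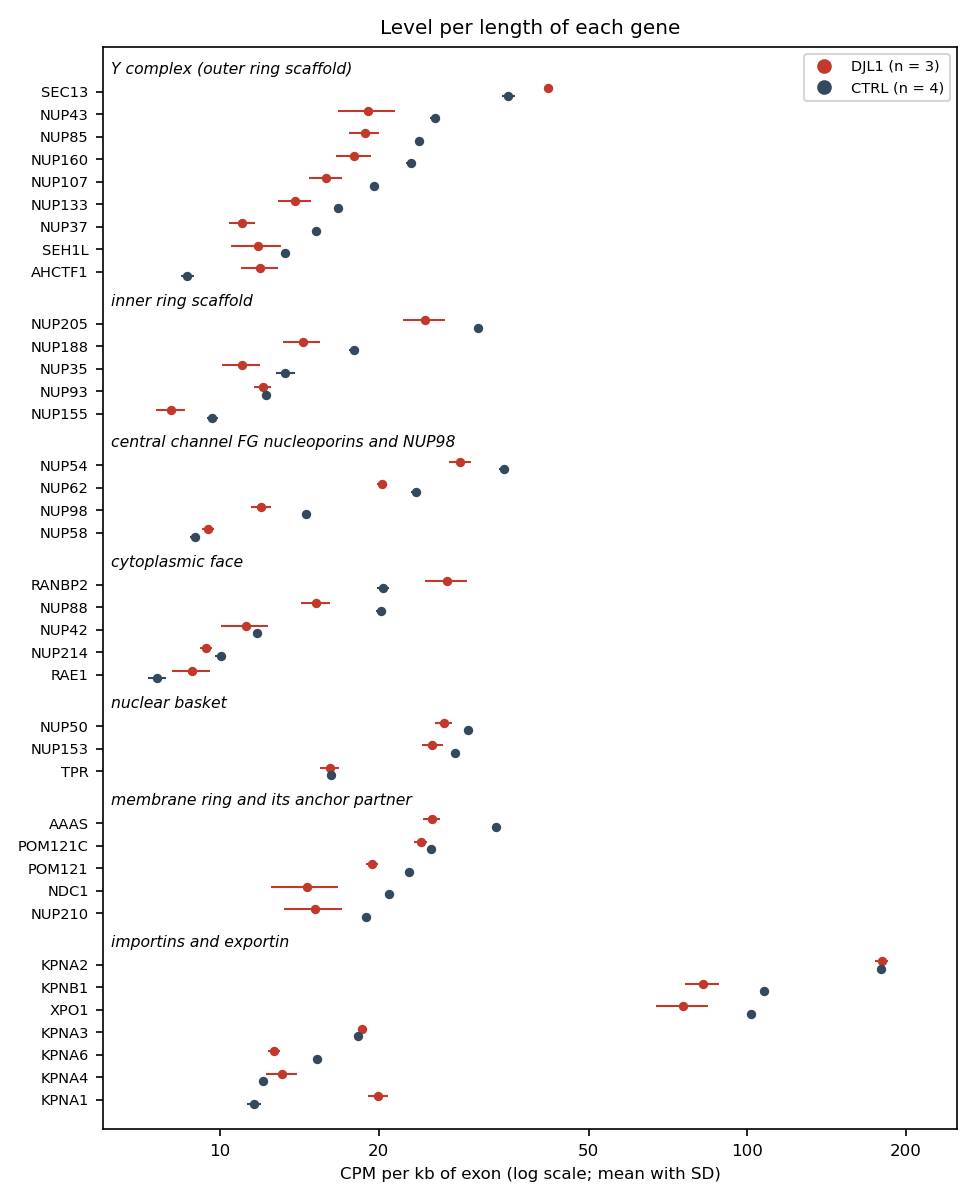
Mean level of each member in CPM per kilobase of exon (log axis) with SD, DJL1 drawn above CTRL. KPNA2, KPNB1 and XPO1 stand apart on the right, and the nucleoporins lie between 7.59 and 42.0.

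The DJL1 libraries also differed among themselves. The median over members of the log2 ratio to the CTRL mean was -0.19, -0.29 and -0.20 in DJL1 replicates 1, 2 and 3, and between -0.01 and 0.01 in the CTRL libraries. DJL1 replicate 2 was the lowest of the 3 for 26 of the 38 members. The coefficient of variation had a median over members of 6.35% in DJL1 and 1.43% in CTRL, and was larger in DJL1 for 35 of 38, with the most in NDC1 at 14.5%. Summed over the 38 members, levels were 5032, 4630 and 4986 CPM in DJL1 and 5442, 5428, 5454 and 5424 CPM in CTRL.

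Further genes of nuclear transport were taken from a list set by function, also with earlier results of these data known. Of 46 listed, 44 were tested, and 34 were lower (77.3%) and 3 higher (6.82%), with a median log2 fold change of -0.25, where 25.1% of all tested genes were lower and 27.0% higher with a median of 0.01. In the members' CPM range, which does not hold all of the 44, 47.7% were lower and 24.5% higher, with a median of -0.11. RANGRF and DDX39B had 0 and 1 counts over all 7 libraries and were not tested. Whether their RNA was absent or its reads were not assigned to these rows cannot be told from the counts. In the Ran cycle 5 of 6 were lower. RAN itself stood at 379 ± 25.0 CPM in DJL1 and 520 ± 13.9 CPM in CTRL (log2 fold change -0.46 ± 0.05, SE), and NUTF2, which returns RAN to the nucleus, had -0.55. Of 13 further import receptors 11 were lower, with TNPO2, a transportin for proteins with PY signals, lowest at 121, 131 and 143 CPM in DJL1 and 223, 226, 213 and 217 CPM in CTRL (-0.74 ± 0.05, SE). All 6 further export receptors were lower, among them XPO4 (-0.57) and CSE1L (-0.53), which recycles importin alpha. Of 16 mRNA export genes 10 were lower, including THOC7 (-0.62) of the THO complex and ENY2 (-0.49) of the TREX-2 complex, and 3 were higher, GLE1 (0.45), ALYREF (0.16) and THOC5 (0.12).

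By the authors' deposited table, 7 of the 38 members were higher and 24 lower at an adjusted p under 0.05. The share of all genes called in that table was not counted. In the fit above 27.0% of all tested genes were higher and 25.1% lower. The authors' calls matched those above for 37 members, and as both compare the same groups of libraries the match is not independent. The exception was NUP58, which the authors' deposited table lists as higher by 0.10 on the log2 scale with an adjusted p of 0.035.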

How the data were processed

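The authors deposited a count table, not normalized, with rows of gene symbols and, per the file headers, a column per library. Per the labels' protocols, libraries were made from poly(A) RNA with a directional kit. Tools listed in the submitters' processing notes are HISAT2 2.2.1, Trim Galore 0.4.0 and featureCounts with Subread 1.5.0, and the builds GRCh38 and hg38. Settings for strand and for reads with several matches are not given there. From the authors' deposited comparison table the log2 fold changes and the adjusted p-values were read for the members, and the deposited log value table was not used.

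Titles gave the groups. Whether replicates are separate cultures is not said, so p-values measure the spread between these libraries, which may be technical. No batch is labelled, so library preparation and group cannot be told apart. Genes were kept by filterByExpr (minimum count 10, minimum total 15), leaving 26062 of 59251 rows with 99.9% of counts, scaled by TMM and tested two-sided with edgeR 4.0.16 (R 4.3.3) in quasi-likelihood fits with robust dispersion. Each SE is the absolute log2 fold change over the square root of F, and intervals are 1.96 SE on either side. TMM centres log ratios, so a change in total RNA per cell cannot be seen. The procedure was tested on simulated counts. Alternatives used DESeq2 1.42.0, limma 3.58.1, other scalings and filters, counts thinned to the smallest library, a replicate block and each library left out. Same-numbered libraries did not deviate together (r of -0.01, -0.04 and -0.02 over tested genes), so the numbers were not used as pairs. The members and lists were chosen with earlier results of these data known. Library values are given, by rule, for the called member with the smallest adjusted p and the member with the largest absolute fold change in each role, and for KPNA2, KPNB1, XPO1, NUP98, POM121, POM121C and RANBP2. Related genes named by rule were RAN, those with the 6 smallest adjusted p and those called with an absolute log2 fold change of at least 0.5, and GLE1, ALYREF, THOC5, KPNA5 and KPNA7 were named after their values were seen. Most related genes are counted without being named. Exon lengths are from GENCODE release 29 (NUP42 matched by its older symbol NUPL2) and positions and promoters from RefSeq, GRCh38.p14.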

Additional observations from a re-analysis of the deposited data

Results flagged for a closer look

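SEH1L in the CTRL group was marked because 1 of the 4 libraries stood apart. CTRL replicate 2 had 47.3 CPM while the others had 45.9 to 46.1 CPM, so its gap to the nearest made up 0.896 of the range, past Dixon's 95% limit for 4 samples. It was 1 of 45 genes examined, and chance marks about 1 in 20 groups.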

How the results depend on the processing

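Of the 30 called members, 27 kept their call and direction under all 18 alternative settings, SEH1L, KPNA4 and RAE1 being the exceptions, and 4 members not called (NUP58, NUP214, NUP42 and POM121C) passed in at least 1. Over the fits that left out 1 library, 5 to 7 members were higher, 23 to 26 were lower and the median log2 fold change ran from -0.26 to -0.23, and of the related genes 2 to 4 were higher and 33 to 36 lower. Genes called in either direction in these fits ran from 11998 of 24900 tested (without CTRL replicate 2) to 14097 of 27013 (without DJL1 replicate 3). At an adjusted p under 0.01, 1 related gene was higher, against 3 at 0.05. Of all 26062 tested genes, 10558 were called at 0.01 and 13559 at 0.05. With the replicate block 5 members were higher and 23 lower, the related genes had 2 higher and 30 lower, and 11477 of the 26062 genes were called. SEH1L and KPNA4 were the 2 members whose calls the block ended (adjusted p = 0.0501 and 0.135), and the labels give no sign that the numbers mark pairs. With counts thinned to the smallest library, which evens out depth, 6 members were higher and 23 lower, and 12769 of 23677 tested genes were called. No direction of a called member turned under any scaling tried. The 3 against 4 design limits how well spread is known, and DJL1, at lower depth, was the more variable group.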
